A study of Mus musculus with 40 samples.

Results

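The mouse Cyp3a genes Cyp3a11, Cyp3a13, Cyp3a16, Cyp3a25 and Cyp3a44, 5 members of the cytochrome P450 family, were followed in liver and kidney of mice treated with phenobarbital (PB). The platform annotation gave each of the 5 genes 1 probe set of its own, 5 of the 45037 probe sets on the array. A further probe set is annotated to both Cyp3a41a and Cyp3a41b and is given as shared, beside the members. The series holds 40 Affymetrix Mouse430_2 arrays, 1 per tissue and animal. The groups were 10 livers and 10 kidneys of PB mice, which drank 0.05% (w/v) PB for 28 days, and 10 livers and 10 kidneys of control mice without PB. All were male B6C3F1/Crl hybrids of a C57BL/6 father and a C3H/He mother, 29 to 32 days old on arrival and given 5 days to settle before dosing. Each value is the deposited MAS5 signal, a linear brightness per probe set that the authors scaled to a common trimmed mean, and levels of different probe sets are not comparable with each other. Animals are the replicates, 10 per group.

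CYP3A enzymes are heme-containing monooxygenases of the endoplasmic reticulum that oxidise steroids, bile acids and a wide range of drugs, and they are known mainly from hepatocytes and the lining of the small intestine. Their genes are classical targets of PXR (Nr1i2) and CAR (Nr1i3), nuclear receptors that bind DNA with RXR at paired half-sites, and PB is the textbook activator of CAR. In mouse, Cyp3a11 is the main adult hepatic form. Cyp3a16 is known from fetal and neonatal liver, Cyp3a41 and Cyp3a44 from female liver, and Cyp3a13 and Cyp3a25 from liver and gut.

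The bases in front of 4 members are shown because the family holds copies both close and distant in sequence. Each is the run of 250 bases before the annotated start (RefSeq, GRCm38.p6), with AGGTCA or AGTTCA half-sites on either strand (on the opposite strand they read TGACCT or TGAACT) and TATAAA in capitals.
Cyp3a11, chr5:145879855-145880104, minus strand: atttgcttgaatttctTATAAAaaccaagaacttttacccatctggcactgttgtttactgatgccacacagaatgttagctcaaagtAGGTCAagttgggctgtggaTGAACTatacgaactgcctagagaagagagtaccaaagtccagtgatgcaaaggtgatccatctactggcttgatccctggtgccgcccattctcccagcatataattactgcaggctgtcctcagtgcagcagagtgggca
Cyp3a25, chr5:146009619-146009868, minus strand: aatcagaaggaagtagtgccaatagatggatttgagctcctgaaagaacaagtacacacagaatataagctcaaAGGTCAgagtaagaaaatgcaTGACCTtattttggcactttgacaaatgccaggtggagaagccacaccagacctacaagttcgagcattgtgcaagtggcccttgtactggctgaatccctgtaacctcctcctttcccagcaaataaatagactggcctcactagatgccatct
Cyp3a13, chr5:137921620-137921869, minus strand: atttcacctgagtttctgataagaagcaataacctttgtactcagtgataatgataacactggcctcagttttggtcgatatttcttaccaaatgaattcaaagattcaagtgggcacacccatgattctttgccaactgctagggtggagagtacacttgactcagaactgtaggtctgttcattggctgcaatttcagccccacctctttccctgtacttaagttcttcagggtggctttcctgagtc
Cyp3a44, chr5:145805875-145806124, minus strand: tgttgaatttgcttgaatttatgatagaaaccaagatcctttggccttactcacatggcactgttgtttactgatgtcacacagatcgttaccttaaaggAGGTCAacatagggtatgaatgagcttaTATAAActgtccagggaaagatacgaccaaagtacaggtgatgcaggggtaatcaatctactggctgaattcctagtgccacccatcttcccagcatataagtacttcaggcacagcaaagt

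Promoter windows of 300 bases, 250 before and 50 after the start, were found for all 5 members. The windows of Cyp3a16 and Cyp3a44 were 93.4% identical over their aligned columns, and those of Cyp3a11 and Cyp3a16 74.8%. The window of Cyp3a25 was 95.7% identical to that of Cyp3a59 and 89.7% to that of Cyp3a57, neighbours with no probe set in the annotation used. Whether a probe set takes up transcripts of another copy was not tested. Cyp3a13, which lies apart from the cluster of the others on chromosome 5, was 48.4% to 54.4% identical to the other 4 members. Cyp3a25, which lies within the cluster, was as distant, at 48.4% to 53.6% identity to the other 4. Counted back from the start, AGGTCA stood once before Cyp3a11, with its first base at -162, once before Cyp3a44, at -150, and at 2 places before Cyp3a25, at -176 and, on the opposite strand, at -155. AGTTCA was found before 1 member, Cyp3a11, with its first base at -142 on the opposite strand. No window of a member held a direct repeat of these half-sites with 3 or 4 bases between them or an everted repeat with 6. Cyp3a13 and Cyp3a16 held no half-site. Over 27025 promoters of the same length, 16% held AGGTCA, 14% AGTTCA and 14.2% TATAAA, while the direct repeats were in 0.0111% (3 bases between) and 0.0259% (4 bases) and the everted repeat in 0.0111%. A match is a string of letters, not a bound site, and its absence says only that these letters are not in the window.

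In liver, Cyp3a13 was higher in every PB animal than in any control, Cyp3a25 was slightly higher on average, and the signal of Cyp3a11 differed by less than its spread between animals. Cyp3a16 and Cyp3a44 had group means under 50, the level below which the study takes a probe set as not expressed, and were not tested. Of the 3 members tested with limma on log2 signals (group mean of 50 or more in either group, two-sided, Benjamini-Hochberg adjusted p under 0.05), 2 were higher and none lower, where 5.88% of all 18981 probe sets tested in liver were higher and 6.43% lower (12.3% in either direction).

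**Figure D1:**
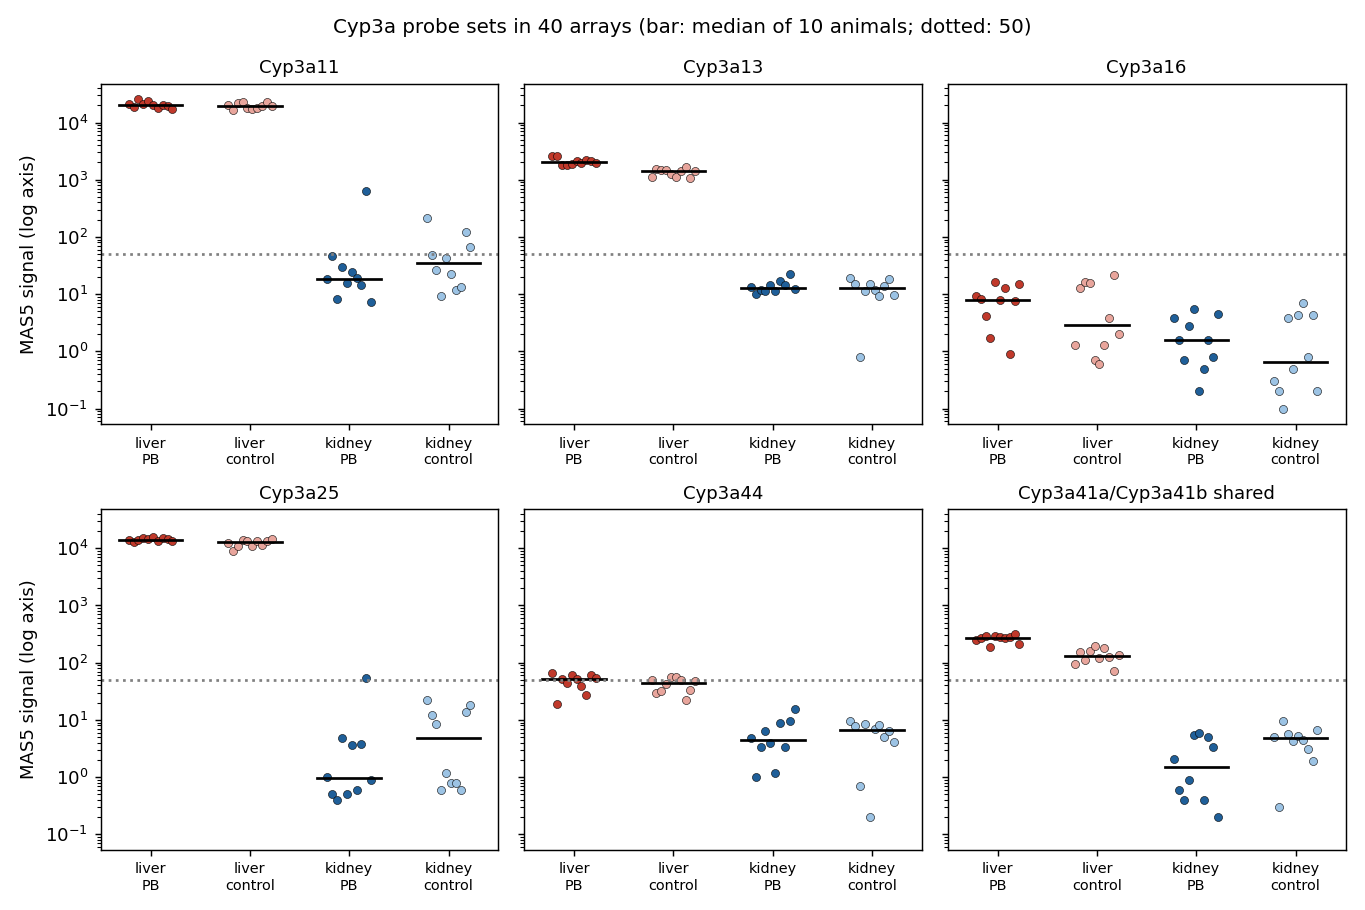
MAS5 signal (log axis) of the 5 member probe sets and the shared Cyp3a41a/Cyp3a41b probe set, 1 point per array, in livers of PB and control mice and kidneys of PB and control mice; the bar is the median of 10 animals and the dotted line lies at 50. Cyp3a11, Cyp3a13 and Cyp3a25 lie above 1000 in all 20 livers, and 1 PB kidney stands out for Cyp3a11 (641.6) and Cyp3a25 (53.4).

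Cyp3a13 had its lowest liver signal at 1776.1, its median at 2035.7 and its highest at 2616.8 in PB mice, against 1082.1, 1414.25 and 1684.8 in control mice. The 2 groups did not overlap, and all 10 PB livers lay above all 10 control livers, which held for 1.02% of all probe sets tested. Cyp3a13 averaged 2111 ± 296 in PB livers and 1360 ± 206 in control livers (SD, n = 10 each). Its log2 fold change was 0.64 (standard error, SE, 0.09, 95% interval 0.46 to 0.82, limma adjusted p = 2.369e-05). The ratio of means was 1.55, and with the limma p it passed the study's thresholds of a 1.5-fold ratio and p of at most 0.001, as 2.4% of the probe sets tested did. With both tissues in 1 fit the same difference was not called (limma adjusted p = 0.1066), in a fit that takes 1 variance per probe set from all 40 arrays, the kidney arrays included.

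Cyp3a25 had its lowest, median and highest liver signals at 12929.4, 14182.6 and 15848.7 in PB mice, against 9087.1, 12787.5 and 14242.6 in control mice. The groups overlapped: 5 PB livers lay above every control liver, and 5 control livers below every PB liver. Means were 14271 ± 1002 in PB livers and 12332 ± 1674 in control livers (SD, n = 10 each), a ratio of 1.16. The log2 fold change was 0.22 (SE 0.07, 95% interval 0.08 to 0.36, limma adjusted p = 0.03814). This call was close to the threshold: it was lost without 9 of the 20 livers taken singly (adjusted p up to 0.0689), with no filter on low signals (0.1018), after centring on the array median (0.1192) and with both tissues in 1 fit (0.8414), all from limma.

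For Cyp3a11 the signal and its place on the array gave different pictures. Its lowest, median and highest liver signals were 17561, 20429.6 and 25648.6 in PB mice, against 16528.7, 19442.5 and 22664.3 in control mice. The ranges overlapped, with 2 PB livers above every control and 2 control livers below every PB liver. The means were 20568 ± 2440 in PB livers and 19641 ± 2219 in control livers (SD, n = 10 each). The log2 fold change of 0.07 (SE 0.07, 95% interval -0.08 to 0.21, limma adjusted p = 0.5865) leaves room for an increase of up to 1.16-fold.

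Ranked from the brightest probe set of its array, Cyp3a11 stood at places 10 to 18 (median 13.5) in the 10 PB livers and at places 23 to 32 (median 27) in the 10 control livers. The ranks did not overlap, which held for 1.43% of the probe sets tested, and for 1.05% with every PB animal ranked above every control. The rank was examined after the signals had been seen. After quantile normalization, which gives every array the same set of values by rank, Cyp3a11 was called higher (log2 fold change 0.14, SE 0.02, limma adjusted p = 6.455e-05), where 6.23% of probe sets were higher under that scaling. Centring on the array median left it uncalled. The 100 brightest probe sets of an array averaged 17098 ± 1559 in PB livers and 17279 ± 1536 in control livers.

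**Figure D2:**
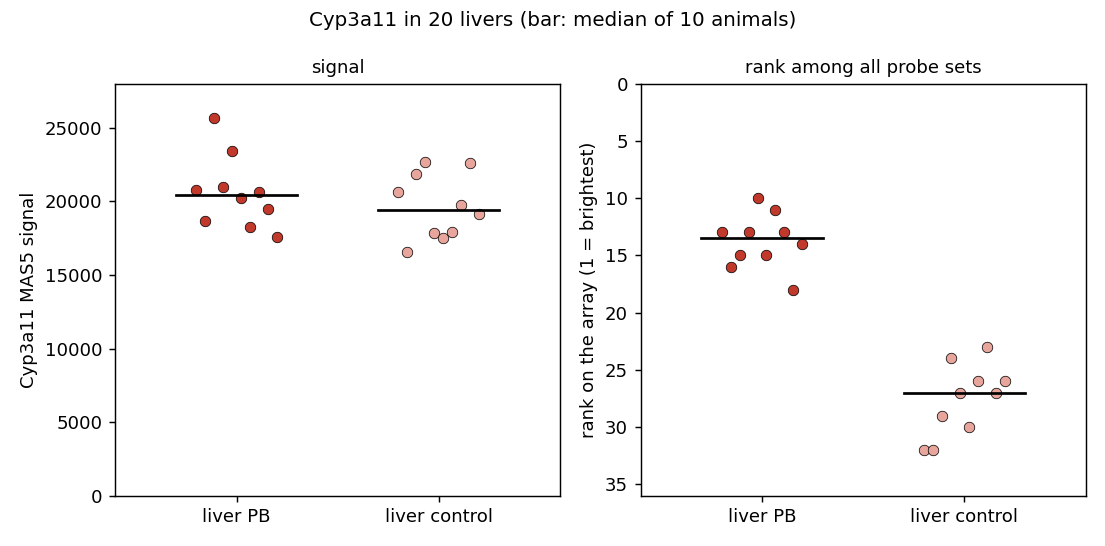
Cyp3a11 in 10 PB and 10 control livers: MAS5 signal from 0 (left) and rank on the array, 1 being the brightest of 45037 probe sets (right, best rank on top); each point is an animal and the bar is the median. The signals overlap, while ranks run from 10 to 18 in PB livers and from 23 to 32 in control livers.

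The spread of Cyp3a11 between animals was shared with other bright genes. With group means taken off, the 5 genes most like Cyp3a11 over the 20 livers, of 9972 compared, were Apoh (Pearson r = 0.99), Apoe (0.98), Serpinc1 (0.98), Bhmt (0.98) and Gpx1 (0.98), all bright like it, with none of them called. Apoh and Serpinc1 encode plasma proteins made by hepatocytes, Apoe an apolipoprotein and Bhmt a methyltransferase of homocysteine. The median r of all genes with Cyp3a11 was 0.02. These values are a description: the points share their arrays and the scaling, and no test was made.

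Cyp3a13 varied with other genes. The genes most like it on the same measure were Mt1, a metallothionein (r = 0.83), Serpina3n (0.82) and Lbp (0.82), acute phase proteins, Ifitm2 (0.82) and Lcn2 (0.81), and none of the 5 was called. Mt1 averaged 1099 in PB livers and 6187 in control livers, the opposite direction to Cyp3a13, with a limma adjusted p of 0.07301. For Cyp3a25 they were Hsd3b2 (0.80), a steroid dehydrogenase, Wbp1 (0.78), Ing2 (0.77), Trpc4ap (0.77) and Tsc22d1 (0.77). Of these Wbp1 was called higher, at 547.9 in PB livers and 478 in control livers (log2 fold change 0.20, SE 0.05, limma adjusted p = 0.01125).

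No relation between members across animals passed its test. Over 10 animals, Cyp3a11 and Cyp3a25 gave r = 0.29 (rho = 0.42) in PB livers and r = 0.43 (rho = 0.31) in control livers, Cyp3a11 and Cyp3a13 gave r = -0.38 (rho = -0.39) and r = -0.07 (rho = -0.03), and Cyp3a13 and Cyp3a25 gave r = -0.18 (rho = -0.10) and r = -0.23 (rho = -0.20). None of these 6 relations passed a permutation test of r or rho, the lowest raw p being 0.2138 for r and 0.2323 for rho and the lowest Benjamini-Hochberg adjusted p 0.7292 for r and 0.7739 for rho. Without the 2 animals farthest from the median of the first gene, r of Cyp3a11 and Cyp3a25 was 0.48 in PB livers and -0.14 in control livers, and that of Cyp3a13 and Cyp3a25 was 0.41 in PB livers and -0.37 in control livers.

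The change in signal with PB also differed between probe sets of the family. The difference Cyp3a13 minus Cyp3a11 in log2 signal was -3.29 ± 0.30 in PB livers and -3.86 ± 0.29 in control livers (SD, n = 10 each), a change of 0.57 (two-sided permutation test, p = 0.00056, adjusted p = 0.00112 over 6 pairs). Cyp3a25 minus Cyp3a13 changed by -0.42 (permutation test, adjusted p = 0.0099). Cyp3a25 minus Cyp3a11 changed by 0.15, which did not pass (permutation test, adjusted p = 0.07842). These pairs were set up after the single effects had been seen. Cyp3a11 lay near the top of the scale, where the brightest probe set read 26148 to 33060 in PB livers and 25795 to 31553 in control livers. Whether signals that bright rise in proportion to the RNA was not tested.

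The shared Cyp3a41a/Cyp3a41b probe set, which cannot tell its 2 genes apart, showed the largest fold change of the Cyp3a probe sets tested in liver. Its lowest, median and highest signals were 191.1, 274.8 and 319.1 in PB livers, against 70.9, 132.2 and 198.2 in control livers, and 9 PB livers lay above every control. The log2 fold change was 1.01 (SE 0.15, limma adjusted p = 4.367e-05) and the ratio of means 1.96. Its change exceeded that of Cyp3a11 by 0.95 (permutation test, adjusted p = 0.0006) and that of Cyp3a13 by 0.38 (permutation test, adjusted p = 0.02874). The promoter window of Cyp3a41a was 93% identical to that of Cyp3a44.

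Cyp3a44, known from female liver, stayed close to 50 in these males. Its liver signals ran from 19.3 to 64.9 with a median of 52.1 in PB mice and from 21.9 to 57.1 with a median of 44.95 in control mice. The groups overlapped, with 3 PB livers above every control and 1 below every control, and 6 PB livers and 3 control livers reached 50. Without the filter its log2 fold change was 0.15 (SE 0.23, 95% interval -0.31 to 0.62, limma adjusted p = 0.8228). Cyp3a16, the fetal form, lay between 0.9 and 16.4 in PB livers and between 0.6 and 22 in control livers, all under 50. Its log2 fold change without the filter was 0.68 (SE 0.67, limma adjusted p = 0.7097).

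**Figure D3:**
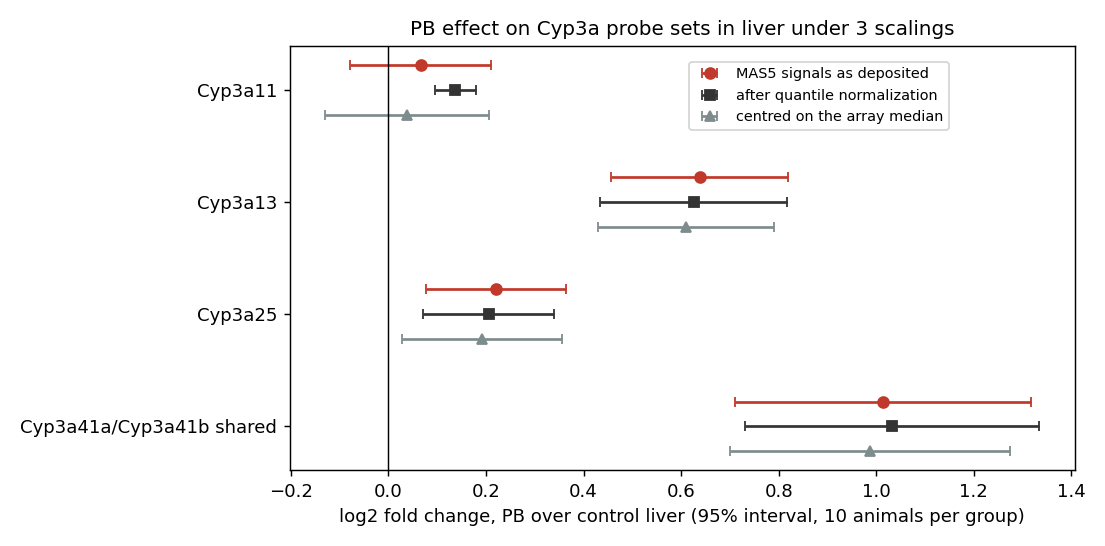
Log2 fold change of PB over control liver with its 95% interval (limma, 10 animals per group) for Cyp3a11, Cyp3a13, Cyp3a25 and the shared Cyp3a41a/Cyp3a41b probe set, from MAS5 signals as deposited, after quantile normalization and after centring on the array median. The Cyp3a11 interval spans 0 as deposited (-0.08 to 0.21) and lies above 0 after quantile normalization, while the other 3 stay above 0 under all 3 scalings.

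In kidney the members were near the bottom of the scale and no PB effect was called. Cyp3a13 had kidney signals of 9.9 to 22.8 (median 12.75) in PB mice and 0.8 to 19.1 (median 12.75) in control mice. Cyp3a16 and Cyp3a44 reached at most 5.4 and 15.8 in PB kidneys and 7.1 and 9.5 in control kidneys. Cyp3a25 lay at or under 4.8 in 9 PB kidneys and at 53.4 in PB mouse 19, and between 0.6 and 22.5 in control kidneys.

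Cyp3a11 was the only member with a kidney group mean of at least 50. It read 641.6 in the kidney of PB mouse 19 and 7.4 to 45.7 in the other 9 PB kidneys, against 9.2 to 214.3 (median 34.35) in control kidneys. Limma gave a log2 fold change of -0.50 (SE 0.66, 95% interval -1.85 to 0.86, adjusted p = 0.7453), although the ratio of arithmetic means was 1.43, so that the direction depended on the measure. Of the 1 member tested limma called none (unadjusted p = 0.4572), where 3.26% of the 19229 probe sets tested in kidney were.

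The kidneys with high Cyp3a11 also carried transcripts that define hepatocytes. The kidney of PB mouse 19 had an Alb signal of 1029.6, Apoa1 of 177.1, Serpina1c of 1319.5 and Fgb of 56.4, where the other 9 PB kidneys had Alb of 79.8 to 173.8 and Fgb of 0.5 to 3.9. Hp and Ttr did not single it out: its Hp was 75, under the 143.2 of PB kidney 12 and the 108.8 of PB kidney 15, and its Ttr was 8132.2, within the 7126.5 to 9455.5 of the other 9. Control kidneys 1, 3, 9 and 10 had Alb of 582.7, 922.8, 735.8 and 416.1 and Cyp3a11 of 214.3, 26.6, 120 and 67.4. Control kidney 3 thus had the second highest Alb and a low Cyp3a11. All 10 hepatocyte markers were measured. Their sum was 7670.5 to 11269.5 in PB kidneys and 7095.5 to 13813.8 in control kidneys, most of it Ttr, and without Ttr it was 3137 in PB kidney 19 and 538.1 to 855.3 in the other PB kidneys, against 1811, 2070, 2133 and 1258 in control kidneys 1, 3, 9 and 10 and 442.6 to 735.9 in the other 6. In these 4 control kidneys Hp ran from 29.5 to 60.8 and Ttr from 9372 to 12555.6, against 3.1 to 23.2 and 6359.6 to 11828.7 in the other 6. The sum without Ttr was formed after the values had been seen. Apoa1, Tat, Fgb, Tdo2 and Cps1 averaged under 50 in both kidney groups. The part of these transcripts in the Cyp3a11 signal was not tested. Without these 5 kidneys, an alternative added after seeing the data, no member reached a kidney mean of 50 and none was tested.

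**Figure D4:**
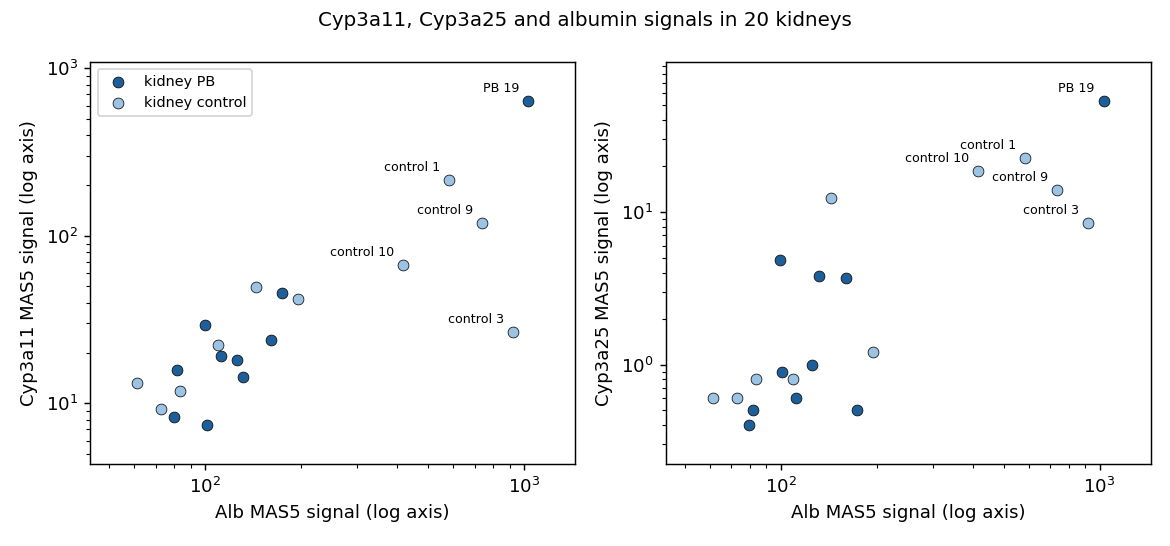
MAS5 signals of Cyp3a11 (left) and Cyp3a25 (right) against Alb, both on log axes, 1 point per kidney of 10 PB and 10 control mice; the 5 kidneys with Alb over 400 are labelled by animal. PB 19 is highest in all 3 genes, and control 3 combines an Alb of 922.8 with a Cyp3a11 of 26.6.

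The levels of Cyp3a11, Cyp3a13 and Cyp3a25 in liver lay far above those in kidney, with and without PB. Cyp3a11 averaged 20568 in livers and 82.35 in kidneys of PB mice, a ratio of 249.8, and 19641 in livers and 57.63 in kidneys of control mice, a ratio of 340.8. With the kidney mean, which was under 50, set to 50, Cyp3a25 was at least 285.4-fold higher in liver in PB mice and 246.6-fold in control mice, and Cyp3a13 at least 42.2-fold and 27.2-fold. A limma fit of all 40 arrays called these 3 members higher in liver in PB mice (34.8% of 21866 probe sets higher, 79.2% called in either direction) and in control mice (35.2% higher, 78.1% called). Cyp3a13 and Cyp3a25 entered that fit through their liver signals alone, which fixed their direction, so nothing is read from the count. In order of level, the liver of PB mice came first for Cyp3a13, with the liver of control mice below it and no overlap. The 2 kidney groups followed far below and overlapped each other. For Cyp3a11 and Cyp3a25 the 2 liver groups overlapped, as did the 2 kidney groups.

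The difference of the PB effect between the tissues was fitted as an interaction over the 40 arrays, which called none of the 3 members in the fit and 6.21% of all probe sets. Cyp3a13 and Cyp3a25 were in it through liver alone and had kidney means under 50 in both groups, so they hold no measured PB effect in kidney to compare, and their values are a description. The fitted effect in liver minus that in kidney was 0.56 (SE 0.70) for Cyp3a11, 0.25 (0.39) for Cyp3a13 and 0.98 (0.83) for Cyp3a25 in log2 units, with limma adjusted p of 0.7209, 0.7882 and 0.5597, and none had an unadjusted p under 0.05. With signals under 20 set to 20 the value for Cyp3a13 was 0.62 (SE 0.10, limma adjusted p = 3.02e-05), close to its liver effect of 0.64, since its kidney signals are then nearly all level. Without PB kidney 19, left out after seeing the data, the interaction was 1.08 (adjusted p = 0.2459) for Cyp3a11 and 1.49 (adjusted p = 0.2255, both from limma) for Cyp3a25.

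Genes that act with the CYP3A enzymes were read from lists, whose members were counted at gene level with the brightest probe set per gene (6.45% of 9975 genes higher in liver, 7.72% lower, median log2 fold change -0.02). Of 17 measured regulators of CYP3A genes 16 were tested, of which 1 was higher and 2 lower in PB livers, with a list median of -0.06. Nr1i3, encoding CAR, was higher, at 462.6 ± 48.1 in PB livers and 373.2 ± 64.1 in control livers (log2 fold change 0.32, SE 0.09, limma adjusted p = 0.02124). Rxra, the partner of both receptors, was lower, at 709.8 ± 60.2 in PB livers and 847.9 ± 128 in control livers (log2 fold change -0.25, limma adjusted p = 0.0288), as was Foxa3, a forkhead factor of hepatocytes (-0.71, limma adjusted p = 0.003609). Nr1i2, encoding PXR, had 195.6 ± 18.9 in PB livers and 158.2 ± 40.9 in control livers (limma adjusted p = 0.07338).

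Of 12 genes for electron supply and heme synthesis, 4 were higher and none lower, with a median of 0.12. Cyb5a, cytochrome b5, which passes electrons to P450 enzymes, averaged 17110 ± 888 in PB livers and 13550 ± 910 in control livers and was higher in all 10 PB livers than in any control (log2 fold change 0.34, limma adjusted p = 7.712e-06). Every PB liver lay above every control for 1.02% of all probe sets tested. Pgrmc1, a heme protein that binds P450s, had a log2 fold change of 0.22 (limma adjusted p = 0.003322). Alas1, which carries out the first step of heme synthesis, averaged 5425 ± 3068 in PB livers and 2352 ± 2339 in control livers, with 4 PB livers above every control (log2 fold change 1.51, SE 0.46, limma adjusted p = 0.03251). Alad, the next enzyme, was the other.

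Of 19 other CAR and PXR target genes measured, 17 were tested. Cyp2b10, Cyp2b9, Abcc4 and Gadd45b passed the filter through PB livers alone, which fixed their direction. The other 13 had means of 50 or more in both groups, and all 13 were called higher in PB livers, with a median log2 fold change of 1.23. Cyp2b10, the best known CAR target, averaged 11480 ± 1067 in PB livers and 25.41 ± 9.84 in control livers, an increase of at least 229.6-fold with the control level set to 50. Cyp2c55 had 8805 ± 905 in PB livers and 271.6 ± 72.5 in control livers. The list was put together with these results known, and its count is no independent evidence of direction.

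**Figure D5:**
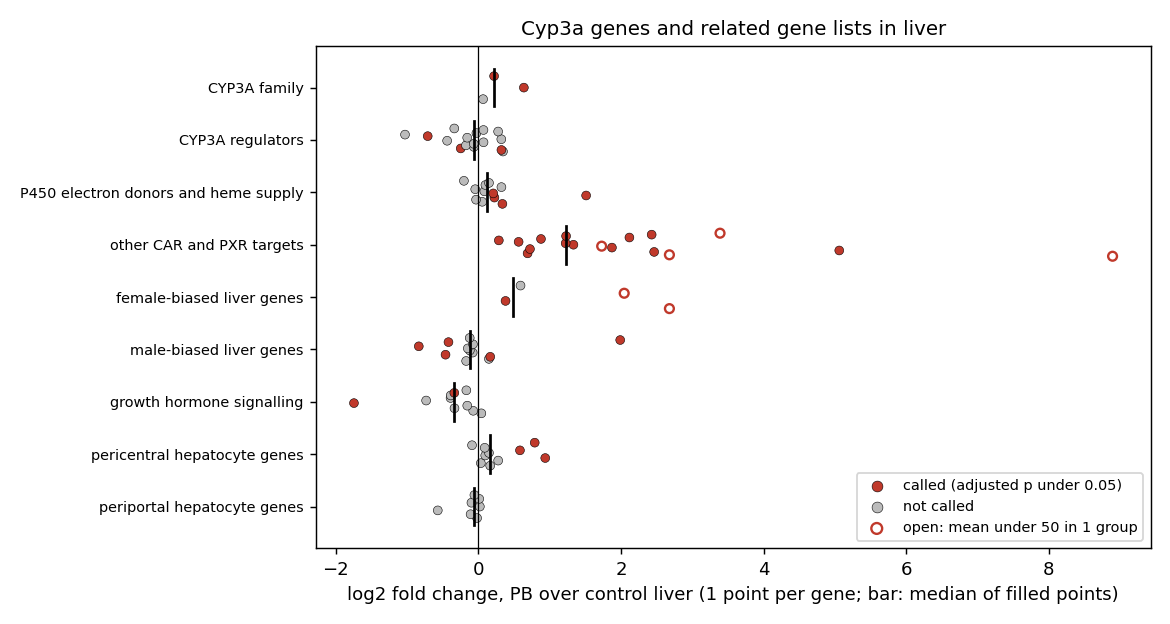
Log2 fold change of PB over control liver for the genes tested in each list, 1 point per gene, red where limma called it and grey where not; open points had a mean under 50 in 1 group, and the bar is the median of the filled points. The 3 Cyp3a members lie between 0.07 and 0.64, and the 13 filled points of the other CAR and PXR targets have a median of 1.23.

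As some Cyp3a genes are sex-biased in mouse liver, sex-biased and growth hormone genes were counted too. Of 11 female-biased genes measured 4 were tested, of which Cyp2b9 and Prom1 passed the filter through PB livers alone. Of the other 2, Cux2 was called higher, at 178.5 in PB livers and 137.5 in control livers, and Cyp17a1 was not called. Of 12 male-biased genes 2 were higher and 3 lower. Moxd1 was higher, at 991.5 ± 648 in PB livers and 382.5 ± 498 in control livers (log2 fold change 1.99, limma adjusted p = 0.03695). Ugt2b38 was lower (log2 fold change -0.84, limma adjusted p = 0.000429). Cyp7b1, an oxysterol hydroxylase, was lower too, at 9280 ± 1335 in PB livers and 12730 ± 1509 in control livers (log2 fold change -0.46, limma adjusted p = 0.0003915). Of 10 growth hormone genes 2 were lower. Igf1, the main liver output of growth hormone, averaged 5638 ± 367 in PB livers and 7117 ± 334 in control livers, with all 10 PB livers below all controls (log2 fold change -0.34, limma adjusted p = 5.477e-06). The 2 liver groups did not overlap, in either direction, for 1.36% of all probe sets tested. Socs2, a feedback inhibitor, was the other, with a log2 fold change of -1.75 (limma adjusted p = 0.04163). Cyp2b9 is also in the CAR and PXR list. Of 10 pericentral genes, from the zone around the central vein where P450 enzymes are most abundant, Cyp1a2, Lect2 and Rhbg were higher and none was lower, while limma called none of 7 periportal genes, 1 of which had an unadjusted p under 0.05.

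In kidney, limma called none of the 11 regulators tested, 4 of which had an unadjusted p under 0.05. Of 12 electron and heme genes Cyb5b was higher (log2 fold change 0.16, limma adjusted p = 0.03623), and of 11 CAR and PXR targets tested Gsta2, Aldh1a1, Papss2 and Aldh1a7 were higher, where 2.17% of 10082 genes were higher and 1.57% lower. Gsta2, a glutathione transferase, averaged 3260 ± 646 in PB kidneys and 2104 ± 357 in control kidneys (log2 fold change 0.62, limma adjusted p = 0.002239). Of 3 adipocyte markers tested in kidney, Adipoq and Fabp4 were higher. The summed adipocyte markers ran from 942.6 to 6728.2 in PB kidneys and from 782.8 to 1437.9 in control kidneys. The part of fat cells in the kidney calls was not tested.

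Genes next to the Cyp3a genes on chromosome 5 did not pass the test with PB. Of the 6 genes flanking the cluster 5 were tested in liver and 5 in kidney, and of the 6 around Cyp3a13 5 were tested in liver and 3 in kidney, and limma called none. At an unadjusted p under 0.05 there was 1, Rnf6 beside the cluster in liver, at 293 ± 29.6 in PB livers and 333 ± 44.4 in control livers (limma adjusted p = 0.1281). Azgp1, beside Cyp3a13, averaged 13990 ± 1060 in PB livers and 14020 ± 987 in control livers (limma adjusted p = 0.971).

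The livers carried hepatocyte markers at 142367 to 205043 (summed signal) in PB mice and 150158 to 202850 in control mice, and limma called 1 of 10, Fgb, lower. Of 7 stellate cell markers tested 5 were lower in PB livers, with sums of 2452.2 to 3318.3 in PB livers and 2989.7 to 3785 in control livers. Of the lymphocyte markers Ighm was higher. In such bulk samples fewer cells of a type and less RNA per cell cannot be told apart, and the part of these markers in the Cyp3a values was not tested. The liver of control mouse 5 had a proximal tubule marker sum of 1825.5, where the other control livers reached at most 518.1 and PB livers 520.6. Most of the sum in control liver 5 was 1 gene, Kap, at 1230.2. Without control liver 5 Cyp3a13 had a log2 fold change of 0.63 (limma adjusted p = 6.387e-05) and Cyp3a25 of 0.24 (limma adjusted p = 0.03095).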

How the data were processed

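Each deposited intensity is a MAS5 signal of 1 probe set on 1 array, which the authors had scaled to an array trimmed mean of 150; animals were not pooled. GCOS and MAS5 are the tools in the submitters' processing notes (versions not given in the sources used here). Detection calls were not used. How many arrays there are limits the precision. Probe sets were matched by symbol: 34945 of 45037 have 1 symbol, 932 several and 9160 none, and 34741 were matched by Entrez number to a RefSeq gene table. From the deposited signals, those averaging 50 or more in a group compared were kept, signals under 1 set to 1, and log2 values fitted with limma 3.58.1 (lmFit, eBayes with a trend, two-sided) in R 4.3.3, per tissue for PB against control and over 40 arrays for the interaction and for liver against kidney. The procedure was tested on simulated data. The methods state a t-test, run as an alternative. The rest was done in Python 3.11.15 (pandas 2.3.3, NumPy 2.4.6, SciPy 1.17.1, matplotlib 3.10.9), with 100000 resamples in permutation tests.

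Liver and kidney with the same donor number come from 1 mouse, so the animal was an alternative block. Over 15400 probe sets, the 2 tissues of a mouse had correlated deviations with a median r of 0.08 (-0.07 to 0.21, and -0.01 between mice), and for 10 of 20 livers the best match was the kidney of the same mouse. No 2 arrays held identical values. Motifs and windows came from a RefSeq promoter table of GRCm38.p6.

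All members are named. From each list, up to 3 called members with the largest fold change per tissue were to be named (the brightest where none was called). Left out were Hnf4a in kidney and Cps1 in liver, neither of them called, and the sex-biased, growth hormone, pericentral and periportal lists in kidney. Of the 3 genes on each side of the loci, Rnf6 and Azgp1 are named. Named too are the 5 genes most correlated with each member tested in liver. Nr1i2, Alad, Abcc4, Cyp17a1, Aldh1a7 and the marker genes, all outside this rule, were named after their values were seen. The members and lists were chosen with earlier results of these data known.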

Additional observations from a re-analysis of the deposited data

Results flagged for a closer look

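Of the 24 sets of 10 signals examined for a sample far from the others (6 probe sets in 4 groups), 4 held one. The rule flags about 1 in 20 by chance where values are normally distributed. Whether these linear signals are so distributed was not tested, so no rate is set against the count. The kidney of PB mouse 19 stood apart in 3 genes: Cyp3a11 (641.6, next highest 45.7), Cyp3a25 (53.4, next 4.8) and Cyp3a13 (22.8, next 16.7). The kidney of control mouse 3 had a low Cyp3a13 signal (0.8, next lowest 9.4). All 4 are kidney values.

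The interaction fit called the shared Cyp3a41a/Cyp3a41b probe set, with a fitted PB effect in liver minus that in kidney of 2.00 log2 units (SE 0.49, limma adjusted p = 0.007734). Its kidney signals lay between 0.2 and 5.8 in PB mice and between 0.3 and 9.4 in control mice. With every signal under 50 set to 50 the difference was 1.01 (limma adjusted p = 1.262e-05), which is the liver effect alone. The probe set passed the filter through liver only, so no difference between the tissues is shown.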

How the results depend on the processing

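In liver the number of members called was 2 of 3 tested as reported, 1 of 5 with no filter, 1 after centring on the array median and with Student's or Welch's form of the test on log2 signals (on linear signals it was 2), 0 with both tissues in 1 fit, 3 after quantile normalization, and 1 to 2 over the 20 fits that each left out a liver (4 members tested without PB liver 12, otherwise 3). The liver that took the call of Cyp3a25 with it was control 1, 3, 6 or 8, or PB 14, 15, 16, 18 or 19. Cyp3a13 was called in 33 of 34 alternatives (log2 fold change 0.60 to 0.67) and the shared Cyp3a41a/Cyp3a41b probe set in 34 of 34, which include the fit with the array number as a covariate. In kidney the direction of Cyp3a11 was reversed on linear signals, where the log2 ratio of arithmetic means was 0.51 (Student's test, adjusted p = 0.8827), against -0.50 as reported; no other alternative turned the direction of a member. In kidney no alternative called a member. In the interaction 1 member, Cyp3a13, was called with floors of 20 and 50 and with an offset of 16 (log2 difference 0.62, 0.64 and 0.54). With no filter 5 members were called higher in liver than kidney in PB mice and 4 in control mice. The replicate block (animal) changed no call of a member in the comparisons between tissues: for Cyp3a13 the interaction had an SE of 0.40 (limma adjusted p = 0.7834) with the animal fixed and 0.39 (0.7736) with it random. No correlation between members passed under any alternative. Over all probe sets, calls in kidney numbered 627 as reported, 335 with no filter, 367 with Welch's test, 200 with both tissues in 1 fit, 393 to 852 with 1 kidney left out (393 without control kidney 8 and 411 without PB kidney 19) and 78 without the 5 kidneys with high Alb. Without a filter 27191 probe sets differed between liver and kidney in PB mice and 26004 in control mice, against 17315 and 17067. Centring on the array median gave 837 higher and 1439 lower in liver (1116 and 1220 as deposited), 350 and 134 in kidney (345 and 282), and 437 and 915 in the interaction (684 and 673). The cause of these differences was not tested. Signals under 50 limit what can be said of Cyp3a16 and Cyp3a44, and of all members in kidney. The alternatives that chose among probe sets of a gene, or left out those marked _s_at or _x_at, returned the same fold changes and calls, since each member has 1 probe set and none is so marked.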
